A study of Caenorhabditis elegans with 16 samples.

Results

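The cathepsin cysteine proteases analysed here are 10 genes of the 46904 in the expression matrix, namely the cathepsin B-like genes cpr-1, cpr-2, cpr-3, cpr-4, cpr-5, cpr-6 and cpr-8, the cathepsin L gene cpl-1, and the cathepsin Z-like genes cpz-1 and cpz-2. They were picked by gene symbol, and they were selected because their transcripts were seen to move in opposite directions across the 4 conditions of this experiment. Their condition differences therefore describe the selection and carry no test. Levels within the family in a single condition, the spread between replicates, genome position and the related genes below were not used to choose them. Changes between conditions in the order of the members, their shares and their ratios restate the selected differences.

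The cysteine cathepsins are papain family proteases that are made as inactive precursors and matured in the acidic lumen of the lysosome. There they cut proteins delivered by endocytosis and autophagy. In C. elegans many of them are expressed in the intestine, which is both the digestive organ and a tissue rich in lysosomes, and some are secreted into the gut lumen. Cathepsin L is also needed for yolk processing in the embryo and cathepsin Z for moulting, and cystatins are their protein inhibitors.

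Whole worm lysates were collected from young adult hermaphrodites of 1 strain, PP3189, carrying the integrated transgene hhIs251. In it the myo-3 promoter drives a FLAG-tagged channelrhodopsin, ChR2, with the substitutions C128S and H134R, followed by the 3'UTR of unc-54, and the marker Cbrunc-119(+) is carried along. All 4 conditions carry this transgene, which was integrated by bombardment. The series holds no wild type library, so levels could not be compared with wild type. The myo-3 promoter places the light-gated channel in body wall muscle, and the channel works only with its cofactor all-trans retinal (ATR). The condition light_plusATR received 0.1 mM ATR in the E. coli OP50 food and 8 h of illumination (pulses of 5 s of 455 nm blue light, each followed by 20 min of darkness) at 18 °C, which contracts the muscle. The condition light_minusATR had the same light without ATR, dark_plusATR had ATR in darkness, and dark_minusATR had neither. Each condition has 4 biological replicates, and worms that ruptured were washed away before lysis. The paper reports rupture as an outcome of blue light pulses with ATR, so light_plusATR holds the worms left intact by that treatment. The part of this removal in the differences below was not tested.

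The 16 libraries held 19264325 to 32374032 estimated gene counts. Levels are given as CPM, counts relative to library size, after TMM scaling, which removes differences in depth and in the few most abundant RNAs, and as CPM per kb of exon when genes are compared with each other. Fold changes are on the log2 scale ± SE from edgeR's quasi-likelihood fit with n = 4 libraries per condition, and a gene was called when its Benjamini-Hochberg adjusted p over the 15044 genes tested was below 0.05. In whole worms, fewer cells of a type and less RNA per cell cannot be told apart. The counts of members highest in a library are given without the share of all genes highest in it, and are not read as a trait of this family. Replicate 4 of dark_minusATR was the highest of its condition for 8 of the 9 tested members. Its summed level of 7 intestine markers was 1341 CPM against 1213 to 1252 CPM in the other replicates, and that of 7 germline markers 4637 CPM against 4799.7 to 4891 CPM. Replicate 4 of dark_plusATR was likewise the highest of its condition for 8 members. In light_plusATR replicate 4 was the highest for 5 members, and in light_minusATR replicates 3 and 4 were the highest for 4 each.

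Of the 10 genes, 8 lie on chromosome V (WBcel235), which holds 25.0% of all 19985 protein-coding genes, and cpr-6 lies on chromosome X and cpz-1 on chromosome I. On chromosome V, cpr-5 (1132598 to 1134036, minus strand) and cpr-8 (1134602 to 1139182, plus strand) face away from each other across a gap of 565 bases. A further cathepsin-like gene that is not a member, W07B8.4, ends 667 bases before cpr-5 on the same strand. The other members on this chromosome lie apart, with cpr-4 at 6614674 to 6615851, cpr-1 at 11975551 to 11976756, cpz-2 at 13381189 to 13383077, cpr-3 at 15296834 to 15298700, cpr-2 at 16532936 to 16534100 and cpl-1 at 16592572 to 16595346. The pair off this chromosome is cpr-6 at X 6607207 to 6609045, with 8 exons the most divided of the family, and cpz-1 at I 2686640 to 2689429. The annotated proteins range from 306 residues (cpz-1) to 467 residues (cpz-2). All counts of the members were whole numbers within 0.01. An exon of cpr-4 overlaps the piRNA gene 21ur-14330 and cpz-2 overlaps gcy-34, both on the opposite strand, and the strand setting of the counting is not given in the sources used here.

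In control worms cathepsin L was the most abundant member. In dark_minusATR, cpl-1 stood at 1459 ± 158 CPM per kb (SD, n = 4), followed by cpr-6 at 661 ± 39 CPM per kb, cpr-1 at 429 ± 24 CPM per kb, cpr-4 at 387 ± 39 CPM per kb and cpr-5 at 351 ± 39 CPM per kb. The ranges of cpr-1 and cpr-4 overlapped over the replicates, as did those of cpr-4 and cpr-5. Within each library of this condition, however, cpr-5 lay below both cpr-4 and cpr-1. The ratio of cpr-1 to cpr-4 ran from 0.96 to 1.23 over these libraries, so that the order of cpr-1 and cpr-4 is not resolved. Below them came cpz-1 at 279 ± 24 CPM per kb, cpz-2 at 37.4 ± 3.3 CPM per kb, cpr-8 at 13.8 ± 1.3 CPM per kb and cpr-3 at 9.85 ± 1.81 CPM per kb. Expression of cpr-2 was close to the limit of detection, with 0 to 10 counts in any library and none in replicate 3 of light_plusATR and replicate 3 of dark_minusATR, and it failed the filter on low counts. The order by mean level was the same in light_minusATR and dark_plusATR.

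This order changed in light_plusATR, which restates the differences the members were selected on. The most abundant member was still cpl-1 at 1159 ± 22 CPM per kb, but cpr-4 at 882 ± 55 CPM per kb and cpr-1 at 881 ± 38 CPM per kb came next with overlapping ranges, followed by cpr-5 at 492 ± 18 CPM per kb. In the same libraries cpr-6 had moved from the second place to the fifth, at 441 ± 13 CPM per kb. The places of cpr-8 and cpr-3, whose ranges overlapped, swapped when coding length was used instead of exon length, and no other rank in any condition depended on that choice.

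**Figure D1:**
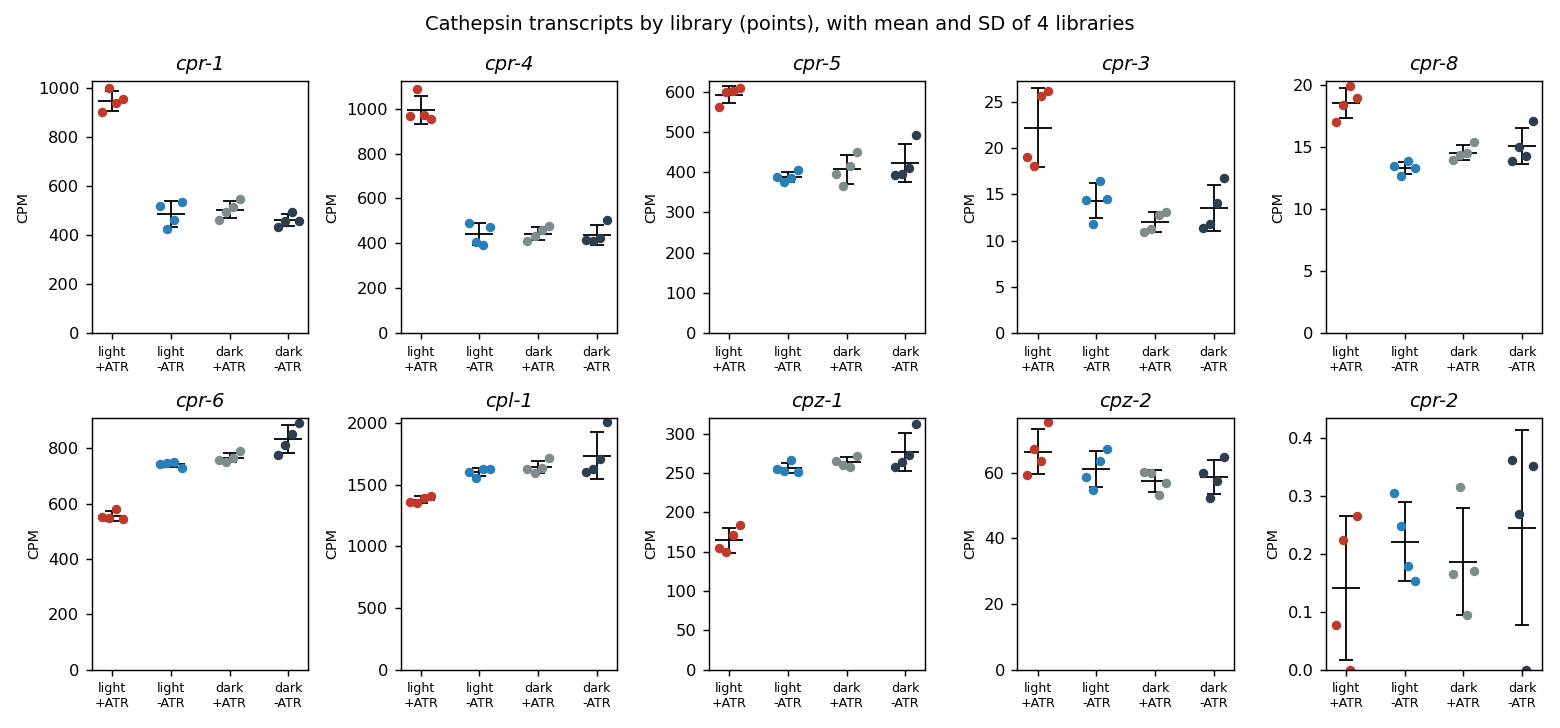
Level of each of the 10 cathepsin genes in CPM (vertical axes, linear and starting at 0, 1 panel per gene) in the 4 libraries of each condition (points, replicates 1 to 4 from left to right), with the mean and SD as black bars. The light_plusATR libraries lie above all 12 control libraries for cpr-1, cpr-4, cpr-5 and cpr-3 and below all of them for cpr-6, cpl-1 and cpz-1.

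Among the cathepsin B-like genes, the strongest differences belonged to cpr-4 and cpr-1. The protein CPR-4 is known as a protease that worms secrete after irradiation and that acts on other cells. In light_plusATR, cpr-4 reached 967, 1088, 972 and 954 CPM in replicates 1 to 4. The corresponding values were 489.9, 404, 393 and 473 CPM in light_minusATR, 409, 432, 457 and 475 CPM in dark_plusATR, and 413, 408, 424 and 503 CPM in dark_minusATR. Every light_plusATR library thus held more than every control library, whose highest value was replicate 4 of dark_minusATR. The log2 fold change of cpr-4 was 1.18 ± 0.08 against light_minusATR and 1.17 ± 0.08 against dark_plusATR, which are comparisons that share the light_plusATR libraries.

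The gut protease gene cpr-1 behaved alike. Its level was 903, 1001, 939 and 957 CPM in the light_plusATR libraries. It was 520.3, 424, 462 and 537 CPM in light_minusATR, 461, 496, 514 and 549 CPM in dark_plusATR, and 435, 456, 497 and 460.1 CPM in dark_minusATR. The groups were again separate, with the control libraries ending at 549 CPM. The ratio of mean CPM of cpr-1 in light_plusATR to light_minusATR was 1.96, and its log2 fold changes were 0.97 ± 0.07 against light_minusATR and 0.91 ± 0.07 against dark_plusATR.

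For cpr-5 the distance was smaller. Its level was 562, 601, 601 and 609 CPM in light_plusATR. It was 387, 376, 387 and 405 CPM in light_minusATR, 396, 366, 416 and 449.55 CPM in dark_plusATR, and 393, 396, 411 and 494 CPM in dark_minusATR. No control library reached the light_plusATR range, the nearest being replicate 4 of dark_minusATR. The log2 fold changes of cpr-5 were 0.61 ± 0.07 against light_minusATR and 0.54 ± 0.07 against dark_plusATR.

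The 2 low-level cathepsin B-like genes also stood higher. The light_plusATR libraries of cpr-3 held 18.1 to 26.1 CPM against 10.9 to 16.8 CPM over the 12 control libraries, with log2 fold changes of 0.63 ± 0.14 against light_minusATR and 0.89 ± 0.14 against dark_plusATR. Within light_plusATR, replicates 3 and 4 of cpr-3 (25.6 and 26.1 CPM) lay well above replicates 1 and 2 (19.03 and 18.1 CPM). For cpr-8 the light_plusATR libraries held 17.04 to 19.9 CPM and overlapped the controls at their lower end, since replicate 4 of dark_minusATR reached 17.1 CPM. The log2 fold changes of cpr-8 were 0.48 ± 0.07 against light_minusATR and 0.35 ± 0.07 against dark_plusATR.

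In the opposite direction stood cpr-6, the cathepsin B-like gene with the highest level in controls. Its level was 552, 547, 580.4 and 543 CPM in light_plusATR. It was 744, 746, 749 and 728 CPM in light_minusATR, 756, 751, 765 and 789 CPM in dark_plusATR, and 777, 813, 851 and 893 CPM in dark_minusATR. All light_plusATR libraries lay below all controls. The log2 fold changes of cpr-6 were -0.42 ± 0.04 against light_minusATR and -0.46 ± 0.04 against dark_plusATR, and its SD between replicates on the log2 scale, 0.05, was the smallest of the 9 tested members.

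Cathepsin L showed a small difference in the same direction as cpr-6. The level of cpl-1 was 1364, 1349, 1396 and 1406 CPM in light_plusATR. It was 1606, 1556.5, 1628 and 1629.7 CPM in light_minusATR, 1627, 1595, 1637 and 1718 CPM in dark_plusATR, and 1601, 1626, 1708 and 2011 CPM in dark_minusATR. The groups did not overlap, and the last library of dark_minusATR stood far above the rest. The log2 fold changes of cpl-1 were -0.22 ± 0.06 against light_minusATR and -0.25 ± 0.06 against dark_plusATR. The call against light_minusATR was lost when library totals (-0.15) or ERCC spike-in totals (-0.18) replaced TMM.

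The cathepsin Z-like genes divided. For cpz-1 the light_plusATR libraries held 154, 149, 171 and 184 CPM. It stood at 256, 252, 266 and 252 CPM in light_minusATR, 266, 261, 258 and 272 CPM in dark_plusATR, and 258, 265, 273 and 312 CPM in dark_minusATR. All 4 light_plusATR libraries lay below all 12 controls, and the log2 fold changes of cpz-1 were -0.64 ± 0.06 against light_minusATR and -0.68 ± 0.06 against dark_plusATR, the largest differences downward in the family. By contrast, cpz-2 ranged from 59.3 to 75.5 CPM in light_plusATR and from 52.3 to 67.3 CPM over the controls, which overlap. Its log2 fold changes were 0.12 ± 0.08 against light_minusATR and 0.21 ± 0.08 against dark_plusATR, and neither was called, although the second was called with library totals, with DESeq2, with only the compared conditions in the fit, and without replicate 1 of light_plusATR.

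**Figure D2:**
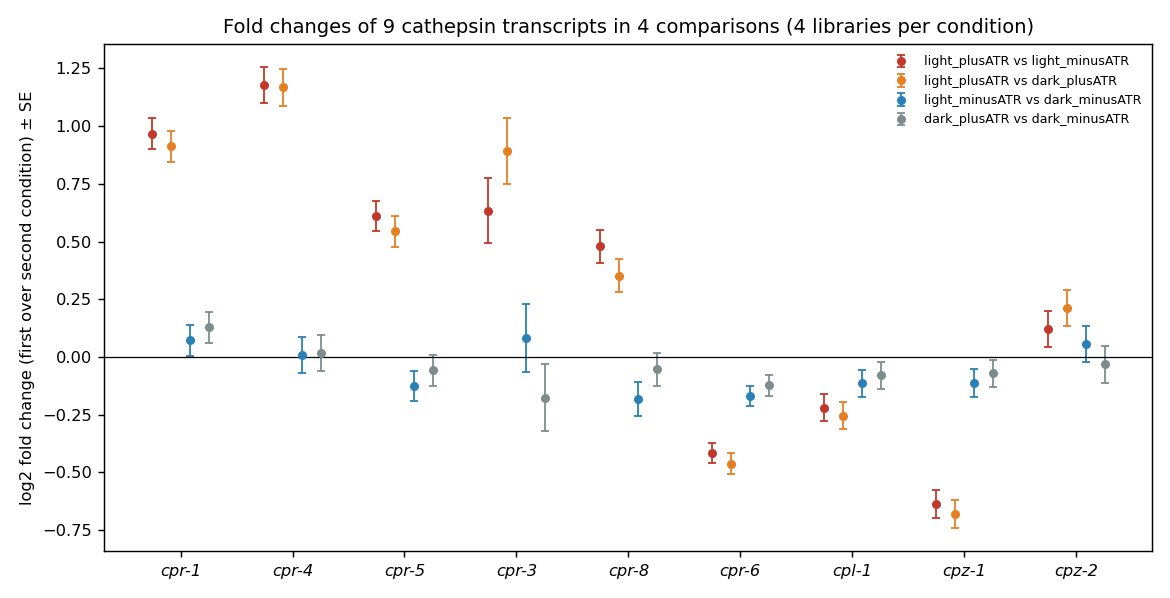
Log2 fold change (vertical axis, first over second condition) with SE for the 9 tested cathepsin genes in 4 comparisons, coloured by comparison, each with 4 libraries per condition. In both comparisons of light_plusATR the genes run from 1.18 and 1.17 for cpr-4 to -0.64 and -0.68 for cpz-1, while the comparisons among controls lie between -0.18 and 0.13.

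Of the 9 tested members, 8 were called between light_plusATR and light_minusATR, 5 higher and 3 lower, where 16.3% of all genes tested were called (8.39% higher and 7.9% lower). Between light_plusATR and dark_plusATR 8 were called, 5 higher and 3 lower, where 27.7% of all genes were called (16.2% higher and 11.6% lower). Against all 12 control libraries, 4 members were higher without overlap, as were 7.35% of all genes, and 3 were lower without overlap, as were 6.29%. The interaction of light and ATR, which asks whether the effect of light depends on ATR, called 7 members, 5 higher and 2 lower, where 5.23% of genes were called (2.58% higher and 2.65% lower). The interaction estimates ranged from -0.57 ± 0.08 for cpz-1 to 1.16 ± 0.11 for cpr-4, and cpl-1 (-0.14 ± 0.08) and cpz-2 (0.15 ± 0.11) were not called. Without replicate 4 of dark_minusATR the interaction of cpl-1 was called at -0.22. The interaction of cpr-3 (0.81 ± 0.20) was no longer called when any one of 5 libraries was left out, namely replicate 1 of light_minusATR, replicates 1 and 2 of dark_plusATR, replicate 3 of light_plusATR or replicate 3 of dark_minusATR, with estimates of 0.74 to 0.81. Since the members were selected on these conditions, nothing is read from these counts.

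Light without ATR and ATR without light left smaller differences. Between light_minusATR and dark_minusATR edgeR called 0 members and 0 of all genes (0%), with 2 members and 2012 genes at an unadjusted p below 0.05, and DESeq2 called 1 member, cpr-6, and 177 genes. The log2 fold changes of the members ran from -0.18 ± 0.07 for cpr-8 to 0.08 ± 0.15 for cpr-3, and cpr-6 stood at -0.17 ± 0.04. For both cpr-6 and cpr-8 the light_minusATR libraries lay below the dark_minusATR libraries without overlap, which held in this direction for 2.85% of all genes. Between dark_plusATR and dark_minusATR edgeR called 0 members and 0.0665% of all genes, with 1 member and 1179 genes at an unadjusted p below 0.05, and DESeq2 called 0 members and 23 genes. There the members lay between -0.18 ± 0.15 for cpr-3 and 0.13 ± 0.07 for cpr-1. With ERCC totals the sign of cpr-5, cpr-6, cpr-8, cpz-1, cpz-2 and cpl-1 turned in this comparison, and that of cpz-1 and cpl-1 turned between light_minusATR and dark_minusATR. The same scaling moved the median over all genes from 0.003 to 0.15 between dark_plusATR and dark_minusATR. Between light_minusATR and dark_minusATR it moved that median from 0.004 to 0.11.

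Since the members moved apart, the makeup of the cathepsin transcript pool differed by condition, and shares of this pool within a library do not depend on the scaling between libraries. Of the summed CPM per kb of the 10 genes, cpl-1 made up 28.3% ± 0.8 (SD, n = 4) in light_plusATR and between 39.3% and 40.2% on average in the control conditions. The share of cpr-1 was 21.5% ± 0.5 in light_plusATR and that of cpr-4 was 21.5% ± 1.1. In the controls the mean shares were 11.9% to 13.3% for cpr-1 and 10.7% to 11.4% for cpr-4. The share of cpr-6 was 10.8% ± 0.4 in light_plusATR and 17.2% to 18.3% in the controls. The ratio of cpr-4 to cpr-6 per kb was 2.00 ± 0.15 in light_plusATR and 0.66 ± 0.08, 0.65 ± 0.03 and 0.58 ± 0.03 in light_minusATR, dark_plusATR and dark_minusATR, so that the more abundant gene of the pair changed. Within the cathepsin Z-like pair, the ratio of cpz-2 to cpz-1 was 0.257 ± 0.022 in light_plusATR and 0.134 to 0.151 on average in the controls.

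The ratio of cpr-1 to cpr-4 moved little, from 1.16 ± 0.06 in light_minusATR to 1.00 ± 0.04 in light_plusATR. The sum of all 10 members was 4745 ± 104 CPM in light_plusATR, 4006 ± 128 CPM in light_minusATR, 4113 ± 162 CPM in dark_plusATR and 4257 ± 364 CPM in dark_minusATR. Replicate 4 of dark_minusATR reached 4771 CPM and so fell within the light_plusATR range of 4597.5 to 4840.0 CPM. Its makeup did not, with 41.6% for cpl-1 and 10.5% for cpr-1.

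**Figure D3:**
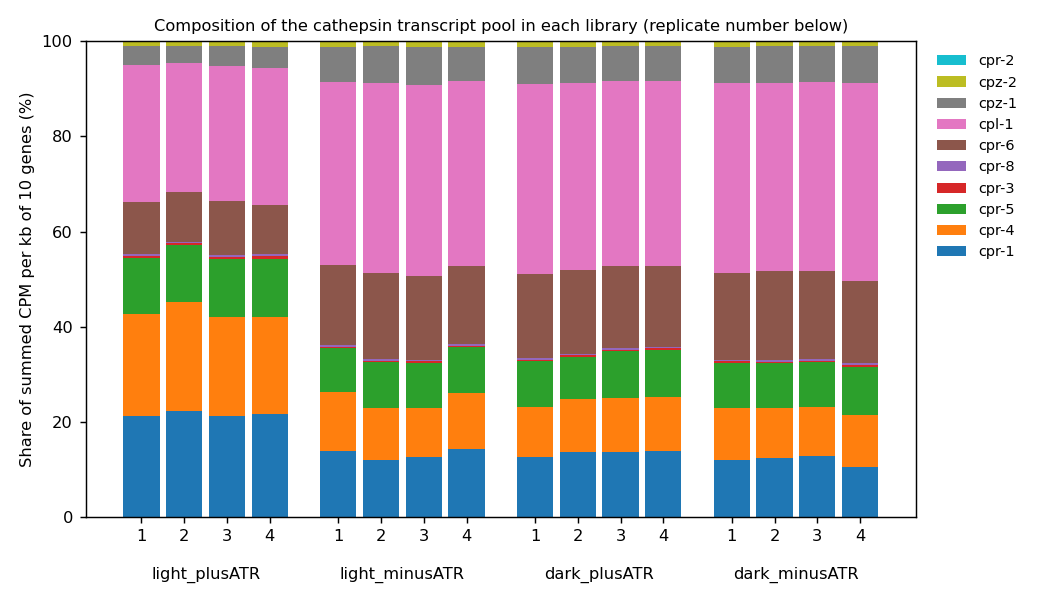
Share of each cathepsin gene in the summed CPM per kb of the 10 genes (vertical axis, percent) for each library, 1 bar per library with replicate numbers below, grouped by condition. The cpl-1 segment averages 28.3% in light_plusATR against 39.3% to 40.2% in the controls, and the cpr-1 and cpr-4 segments average 21.5% each.

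Within conditions the picture was different, because members that moved apart between conditions varied together between replicates. For each member the mean of its condition was subtracted from log2 CPM, and the deviations of the 16 libraries were correlated, which leaves out the condition differences used for the selection. As a description over 16 libraries that share depth, scaling and worms for all genes, r was positive for 35 of the 36 pairs of tested members, with a median of 0.56. For the 15 pairs of a member called higher with a member called lower, r of the levels was negative in 15, from -0.94 to -0.45, which follows the separation of light_plusATR from the other conditions. For the same pairs, r of the deviations was positive in 15, from 0.03 to 0.89, with a median of 0.64.

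The clearest case was cpr-5 with cpl-1, at r = 0.89 (Spearman's rho 0.88) for the deviations and -0.56 for the levels. The pair of cpr-3 and cpz-1 followed at 0.87 (rho 0.85) for the deviations and -0.69 for the levels. Pairs of cpr-1 or cpr-4 with cpz-1 showed almost no shared deviation, at 0.03 and 0.13. Part of this rested on 1 library. Without replicate 4 of dark_minusATR, r of the deviations was positive in 14 of these 15 pairs, with a median of 0.48 and a range of -0.33 to 0.82, and that of cpr-5 with cpl-1 was 0.78. Over all tested genes, the deviations of each member correlated positively with 49.0% to 56.3% of genes. The SD between replicates was above the median of the 500 genes of nearest level for cpr-1 (0.11 against 0.07 on the log2 scale), cpr-3 (0.22 against 0.11), cpr-4 (0.12 against 0.07), cpr-5 (0.10 against 0.07), cpz-1, cpz-2 and cpl-1, and below it for cpr-6 and cpr-8.

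**Figure D4:**
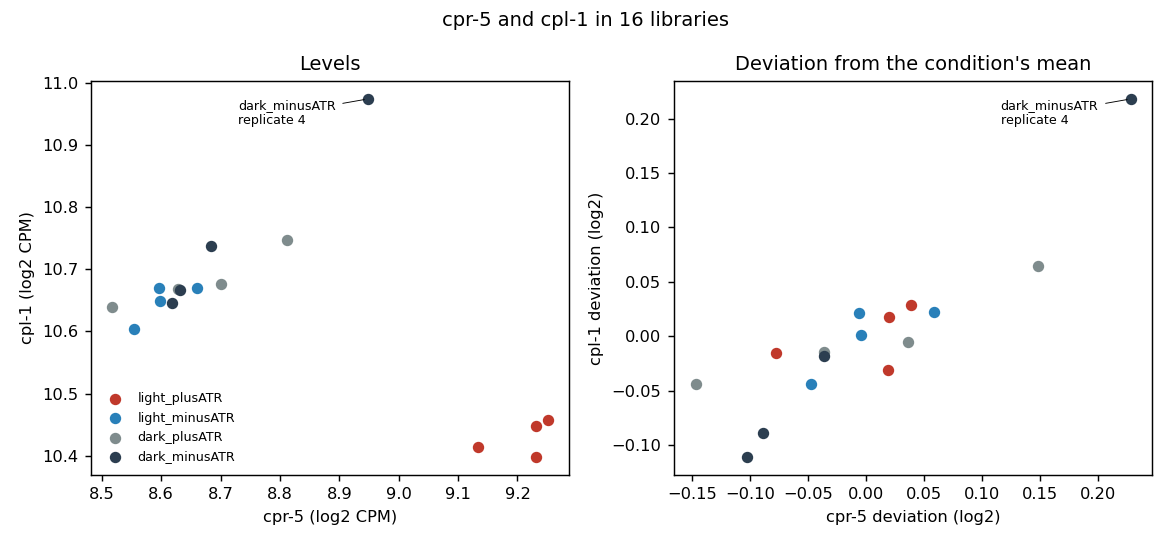
Levels of cpr-5 and cpl-1 in 16 libraries (left, log2 CPM) and their deviations from the mean of their own condition (right, log2), coloured by condition. The light_plusATR libraries sit at high cpr-5 and low cpl-1 on the left (r = -0.56 over all libraries), whereas the deviations on the right rise together (r = 0.89, and 0.78 without the labelled replicate 4 of dark_minusATR).

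The genes most like the most strongly changed members were found by Pearson's r of log2 CPM over the 16 libraries, a description that mainly follows the condition difference. For cpr-4 these were pmp-1 (0.98), which encodes a peroxisomal ABC transporter, unc-60 (0.98), which encodes actin depolymerising factor, cpr-1 (0.98), zig-12 (0.98) and C29F5.1 (0.98). For cpz-1 they were the lipid droplet dehydrogenase gene dhs-3 (0.99), F54D5.12 (0.99), the enoyl-CoA hydratase gene ech-6 (0.98), the phosphoenolpyruvate carboxykinase gene pck-1 (0.98) and the acyl-CoA dehydrogenase gene acdh-1 (0.98).

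The rule did not choose genes that act with the cathepsins, and these were tested. The lists were drawn up with earlier results of these data known, so their counts and p-values are descriptive and give no independent support. Of 124 listed lysosome and protease genes 107 were tested, and 39 of them (36.4%, against 16.3% of all genes) were called between light_plusATR and light_minusATR, 26 higher and 13 lower. The median log2 fold change of the listed genes was 0.03 against 0.01 over all genes. Between light_plusATR and dark_plusATR 48 were called (44.9%, against 27.7% of all genes), 31 higher and 17 lower, and the interaction called 22 (20.6%, against 5.23%), 15 higher and 7 lower. edgeR called 0 listed genes between light_minusATR and dark_minusATR and 0 between dark_plusATR and dark_minusATR, with 13 of the 107 at an unadjusted p below 0.05 in each, where 2012 and 1179 of all 15044 genes were, and DESeq2 called 1 in each.

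Of the cystatins, the inhibitors of cathepsins, cpi-1 fell in light_plusATR against light_minusATR by 0.36 on the log2 scale (SE 0.06, edgeR adjusted p = 9.9e-05) and against dark_plusATR by 0.39 (SE 0.06, adjusted p = 3.1e-05). The other cystatin, cpi-2, stood at -0.03 ± 0.04 against light_minusATR (adjusted p = 0.674), and its sign changed with the scaling. Among the other papain family genes, 5 of 12 tested (41.7%, against 16.3% of all genes) were called against light_minusATR, 4 higher and 1 lower. F57F5.1 rose by 0.40 (SE 0.06, adjusted p = 2.16e-05), F32H5.1 rose by 0.26 (SE 0.05, adjusted p = 0.00105), and Y40H7A.10 fell by 0.36 (SE 0.08, adjusted p = 0.00792). W07B8.4, the neighbour of cpr-5, rose by 0.82 (SE 0.22, adjusted p = 0.0114) at a level of 1.60 CPM in light_plusATR against 0.888 CPM in light_minusATR, and is named for its position although it falls outside the rule for named genes.

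Of the aspartic proteases, which share the lysosome with the cathepsins, 10 of 11 tested (90.9%, against 16.3% of all genes) were called against light_minusATR. They too were divided, with 7 higher and 3 lower. The gut gene asp-1 rose by 0.61 (SE 0.05, edgeR adjusted p = 1.86e-09) and asp-3, a cathepsin D-like gene, by 0.71 (SE 0.06, adjusted p = 8.28e-09). The largest difference was that of asp-12, at 2.98 (SE 0.16, adjusted p = 2.26e-08). Those called lower were asp-4 (-0.33 ± 0.05, adjusted p = 0.000136), asp-8 (-0.87 ± 0.11) and asp-13 (-0.47 ± 0.05). Of these, asp-8 and asp-13 fall outside the rule for named genes. Among the serine carboxypeptidases and legumain 5 of 7 (71.4%, against 16.3% of all genes) were called, 3 higher and 2 lower. Those named are pcp-2 (0.90 ± 0.07, adjusted p = 2.01e-09), the cathepsin A-like gene ctsa-2 (0.59 ± 0.05, adjusted p = 7.9e-09) and pcp-3 (-0.44 ± 0.04, adjusted p = 2.51e-07).

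Of the other lysosomal hydrolases and membrane proteins 13 of 29 (44.8%, against 16.3% of all genes) were called, 10 higher and 3 lower. The glucocerebrosidase genes gba-4 and gba-1 rose by 0.76 (SE 0.05, edgeR adjusted p = 1.94e-10) and 0.93 (SE 0.07, adjusted p = 1.35e-09), and cln-3.1, a homologue of the human CLN3 gene, rose by 1.02 (SE 0.09, adjusted p = 5.99e-08). The vacuolar ATPase that acidifies the lysosome was called in 3 of 21 subunits, or 14.3% against 16.3% of all genes. These were vha-6, the intestinal subunit (0.22 ± 0.04, adjusted p = 0.000368), unc-32 (-0.13 ± 0.04, adjusted p = 0.0139) and vha-5 (-0.14 ± 0.04, adjusted p = 0.0209). The calls of unc-32 and vha-5 were lost with library totals and with ERCC totals, and that of vha-6 with ERCC totals.

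Of 17 genes for sorting to lysosomes and gut granules 2 (11.8%, against 16.3% of all genes) were called, glo-3 (0.41 ± 0.13, edgeR adjusted p = 0.0408) and apm-3 (-0.19 ± 0.07, adjusted p = 0.0482), and both calls were lost under several alternatives. Of 8 transcription factors, edgeR called 0 against light_minusATR, with 4 at an unadjusted p below 0.05, and DESeq2 called 2, hlh-30 and pqm-1. The lysosomal regulator gene hlh-30 stood at 0.21 ± 0.07 (adjusted p = 0.0523), pqm-1 at 0.42 ± 0.14 (adjusted p = 0.0575) and daf-16 at 0.15 ± 0.06 (adjusted p = 0.0751). All 3 were called with library totals and with a replicate block in the fit. Against dark_plusATR 3 of the 8 (37.5%) were called higher, where 16.2% of all genes were. Among them was elt-2, the intestinal GATA factor gene (0.29 ± 0.07, edgeR adjusted p = 0.00371).

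**Figure D5:**
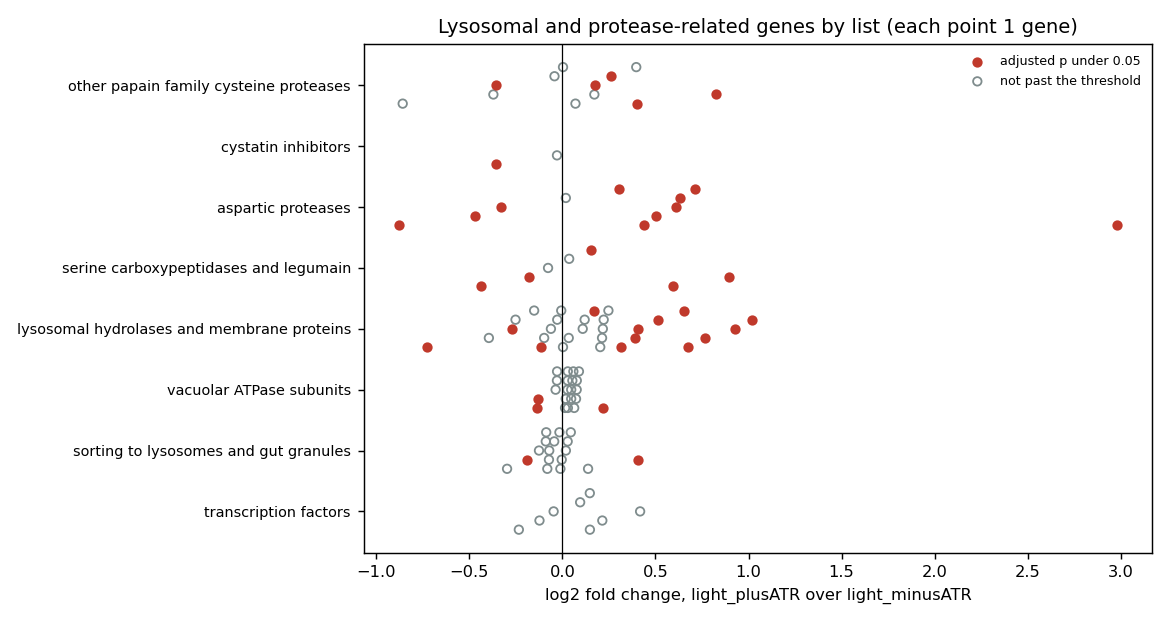
Log2 fold change of light_plusATR over light_minusATR (horizontal axis) for the 107 tested genes of the 8 lists (rows), 1 point per gene, spread vertically only for legibility, with filled points past the adjusted p threshold. Filled points lie on both sides of 0 in the protease lists, asp-12 stands at 2.98, and the vacuolar ATPase subunits gather near 0 with 3 of 21 filled.

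Markers of cell types were measured beside these differences, and their part in them was not tested. The 7 intestine markers, of which elt-2, elt-7 and vha-6 are also in the lists above, summed to 1314 to 1435 CPM in light_plusATR, 1211 to 1367 CPM in light_minusATR, 1181 to 1229 CPM in dark_plusATR and 1213 to 1341 CPM in dark_minusATR. Of these, 2 were called higher and 1 lower against light_minusATR, and 3 higher and 1 lower against dark_plusATR. Over all genes tested, 8.39% were called higher and 7.9% lower against light_minusATR, and 16.2% higher and 11.6% lower against dark_plusATR. The 7 germline and oocyte markers summed to 4140.3 to 4431.5 CPM in light_plusATR and 4466 to 4721 CPM in light_minusATR, with 0 called by edgeR in that comparison (3 at an unadjusted p below 0.05, and 1 called by DESeq2) and 5 lower against dark_plusATR. Body wall muscle markers (3155 to 3291 CPM in light_plusATR against 2374 to 3030.2 CPM in light_minusATR) and pharyngeal muscle markers (478 to 483 CPM against 333 to 449.5 CPM) each had 3 of 4 called higher, and against dark_plusATR 4 of 4 and 3 of 4 were called higher. Sperm markers summed to 67.8 to 105 CPM in light_plusATR and 51.04 to 73.7 CPM in light_minusATR, with 1 of 5 called higher. In dark_plusATR they summed to 40.2 to 60.02 CPM, without overlap with light_plusATR, and 4 of 5 were called higher in light_plusATR against dark_plusATR. In dark_minusATR the sperm markers summed to 36.2 to 49.9 CPM, below all light_minusATR libraries. Their median log2 fold change between light_minusATR and dark_minusATR was 0.51, with 0 called. Of the neuronal markers 1 of 5 was called higher against light_minusATR. Of the hypodermal markers 0 of 5 were called by edgeR or DESeq2 in that comparison, with 0 at an unadjusted p below 0.05. The median log2 fold change of the hypodermal markers was nevertheless 0.54 against light_minusATR and 0.49 against dark_plusATR. No marker of any of these lists was at 0 on average in any condition.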

How the data were processed

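Poly(A) RNA of 16 whole worm lysates was sequenced by the authors from stranded TruSeq libraries with 92 ERCC spike-ins. The authors deposited estimated counts per gene (nf-core RNA-seq pipeline, salmon, WBcel235 with Ensembl release 103), not normalized, and used R 4.0.3 and DESeq2 1.30.1. A joint table named for TPM holds the same estimated counts. The counts were rounded here, and the spike-ins (0.727% to 0.962% of gene counts) were left out of library sizes.

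In R 4.3.3, edgeR 4.0.16 (with limma 3.58.1) tested 15044 genes kept by filterByExpr (minimum count 10) after TMM scaling, with a robust quasi-likelihood F test, 1 coefficient per condition and Benjamini-Hochberg adjustment at 0.05. Log2 CPM used a prior count of 2. Exon lengths and positions came from Ensembl release 115 (46817 of 46904 genes matched).

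Members and lists were chosen with earlier results of these data known, so members carry no p-values and those of listed genes are descriptive. The named genes are all members, from each list the 3 genes with the smallest p against light_minusATR and the 1 with the smallest p in each other comparison, both cystatins, and the 5 genes nearest to cpr-4 and to cpz-1. Lists covered other papain family proteases, cystatins, aspartic proteases, serine carboxypeptidases and legumain, lysosomal hydrolases and membrane proteins, vacuolar ATPase subunits, sorting genes and transcription factors. Cell type markers covered the intestine, germline and oocyte, sperm, body wall muscle, pharyngeal muscle, neurons and hypodermis.

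Alternatives were DESeq2 1.42.0, no filter, library totals, ERCC totals, a replicate block, only the compared conditions in the fit, and each library left out. Leaving out each library from the correlations of deviations was chosen after seeing the data. Promoter motifs and protein sequences were not analysed here. Depth was 19264325 to 32374032 counts per library.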

Additional observations from a re-analysis of the deposited data

Results flagged for a closer look

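In light_plusATR, replicate 2 held 1088 CPM of cpr-4 against 954 to 972 CPM in the other 3 libraries, and in dark_minusATR, replicate 4 held 503 CPM of cpr-4 against 408 to 424 CPM. Both lay farther from their group than Dixon's test allows for 4 samples at its 95% level, among 40 groups screened, of which chance passes about 1 in 20.

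The effect of light differed with and without ATR for the following genes by the interaction test of edgeR over all 15044 genes, in log2 units. Among the members, which were selected on these conditions and are given as a description, the interaction was 0.84 for cpr-1, 0.81 for cpr-3, 1.16 for cpr-4, 0.67 for cpr-5, 0.53 for cpr-8, -0.29 for cpr-6 and -0.57 for cpz-1. Among the proteases and inhibitors that are not members, it was 0.52 for F57F5.1 (adjusted p = 0.000138), -0.32 for cpi-1 (adjusted p = 0.0162), 0.74 for asp-1 (adjusted p = 8.45e-08), 0.81 for asp-3 (adjusted p = 5.54e-07) and 3.38 for asp-12 (adjusted p = 4.74e-07). It was 0.89 for pcp-2 (adjusted p = 1.25e-06), 0.68 for ctsa-2 (adjusted p = 4.95e-07) and -0.47 for pcp-3 (adjusted p = 2.37e-05). Among the other lysosomal genes it was 0.82 for gba-4 (adjusted p = 4.7e-08), 0.98 for gba-1 (adjusted p = 3.42e-07), 1.15 for cln-3.1 (adjusted p = 4.68e-06), 0.26 for vha-6 (adjusted p = 0.00487) and -0.20 for vha-5 (adjusted p = 0.0353). The interaction calls of cpr-6, cpr-8, F57F5.1 and vha-6 were lost with ERCC totals, and that of cpi-1 with library totals.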

How the results depend on the processing

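Between light_plusATR and light_minusATR the number of members called stayed between 7 and 8 over all alternatives, and their directions held in all of them. Scaling to ERCC totals lowered the count of all genes called from 2450 to 1334 in that comparison, from 4169 to 2312 against dark_plusATR and from 787 to 420 for the interaction, where the calls of cpr-6 (-0.40) and cpr-8 (0.42) were lost. The interaction calls of F57F5.1 (0.41) and vha-6 (0.15) were also lost with ERCC totals, and that of cpi-1 (-0.26) with library totals. Leaving out 1 library gave 1619 (without replicate 2 of light_minusATR) to 2384 genes against light_minusATR, 0 to 9 between light_minusATR and dark_minusATR, and 5 to 10 between dark_plusATR and dark_minusATR. The comparison of light_minusATR with dark_minusATR called 4 genes without a filter, 2 with library totals, 3 with ERCC totals and 177 with DESeq2, which there called 1 member and 1 listed gene. Between dark_plusATR and dark_minusATR DESeq2 called 23 genes and 1 listed gene, and the fit of only the compared conditions called 1 listed gene, asp-14. The sign of uncalled genes turned for cpi-2 against light_minusATR with library totals (0.042), with ERCC totals (0.013) and without replicate 2 of light_plusATR (0.0021, with a range of -0.058 to 0.0021 over the libraries left out). Under ERCC totals it also turned between light_minusATR and dark_minusATR for cpi-2 (0.054) and sand-1 (0.028), and between dark_plusATR and dark_minusATR for F57F5.1 (0.032), cpi-1 (0.11) and ctsa-2 (0.060), where the median of all genes moved to 0.11 and 0.15. Of the members, cpz-1 (0.0031) and cpl-1 (0.0034) turned in the first of these, and cpr-5 (0.097), cpr-6 (0.029), cpr-8 (0.10), cpz-1 (0.085), cpz-2 (0.13) and cpl-1 (0.077) in the second. Leaving out 1 library turned the sign of cpr-4 in both, and of cpr-5, cpr-8 and cpz-2 in the second. The cause was not tested.

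Replicate numbers did not clearly pair the samples, and a weak pairing is not excluded. Over 24 pairs of libraries of the same number in different conditions, deviations from the condition means correlated with r from -0.18 to 0.19 (median 0.06). Of these, 6 were above 0.1, and 9 of the 24 were best with their own number. Over 72 pairs of different numbers, r ran from -0.23 to 0.19 (median -0.03), with 15 above 0.1. A replicate block gave 8 members called against light_minusATR and against dark_plusATR it added cpz-2 (0.21), and it added hlh-30 (0.22), pqm-1 (0.40) and daf-16 (0.14) against light_minusATR, and it changed no other call of a named gene. Depth limited cpr-2, which with 0 to 10 counts per library allows no comparison.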
